A study of Drosophila melanogaster with 4 samples.

Results

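The gut trypsin genes of Drosophila melanogaster were followed through 4 whole-fly arrays of the Canton-S strain, across old and young flies kept with or without curcumin. The members were 10 genes named as trypsins (alphaTry, betaTry, gammaTry, deltaTry, epsilonTry, zetaTry, etaTry, thetaTry, iotaTry and lambdaTry). They were found by matching gene symbols, current or older, to the probe-to-gene table, and 8 of the 10 had a probe set, of 11982 genes with a probe set naming 1 gene. Each of the 8 had 1 probe set, and no probe set in the table named several trypsins. No probe set was listed for gammaTry and deltaTry, so these genes were not analysed here.

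The groups were old flies on 100 µM curcumin, old flies without curcumin, young flies on 100 µM curcumin and young flies without curcumin, with 1 array each. Old flies were 40 days old and young flies 1 to 3 days old, and every group was a pool labelled as 30 males and 30 females. Curcumin, the yellow polyphenol of turmeric, was given in an adult sucrose and yeast food, and per the labels the food without it received the ethanol solvent alone. Length of feeding was not stated, so age and time on curcumin food cannot be told apart. Single arrays stand for the groups, so a difference between 2 of them comes without any replicate check, and higher and lower describe these arrays alone.

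Trypsins are secreted serine proteases that cut dietary proteins after lysine and arginine. They are made as inactive precursors and act in the gut lumen, and in flies their genes are expressed mainly by the enterocytes, the absorptive cells of the midgut. GATA factors, among them GATAe, are known to drive digestive enzyme genes in the fly midgut. In the reference gene table all 10 members lie next to each other on chromosome arm 2R, in a run of 14 protein-coding genes that begins with lambdaTry and ends with iotaTry. The 4 others in this run are kappaTry, CG30031, CG30025 and CG13202. Several of these genes are close copies, so a probe set assigned to 1 trypsin may also take up RNA of another, which could not be checked without probe sequences.

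The values are MAS5 signals, 1 number per probe set that combines its probes, rescaled to a common 2% trimmed mean. A signal of 19.3, the 40th percentile over all arrays, served as a floor, and a fold against a group below it is written as at least that fold. On each array between 76.2% and 79.2% of genes reached this floor. Of the calls past 2-fold over all genes, 30.1% were higher in old flies without curcumin than in young flies without it, and centring each array on its median made this share 52.0%. The 12 markers of egg production or of female fat body and ovary went against the label of mixed sex. Of these, 8 were below the floor on every array, and the highest signal among all 12 was 57.9, for the yolk protein gene Yp3. The male accessory gland gene SP, in contrast, read 2958 in old flies with and 1267 in old flies without curcumin, and 3805 in young flies with and 3842 in young flies without curcumin. The pools are therefore called by their labels for age and diet only.

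Old flies without curcumin had the lowest signal of the 4 arrays for all 8 trypsins measured, against 35.9% of the 9562 genes that reached the floor on 2 or more arrays. For 7 of the 8 the signals ran in 1 order, highest in young flies with curcumin, then young flies without it, then old flies with curcumin, and lowest in old flies without it, against 13.4% of those genes. The exception was etaTry. Because the body was not dissected, fewer gut cells and less RNA per gut cell cannot be told apart in any of these values.

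**Figure D1:**
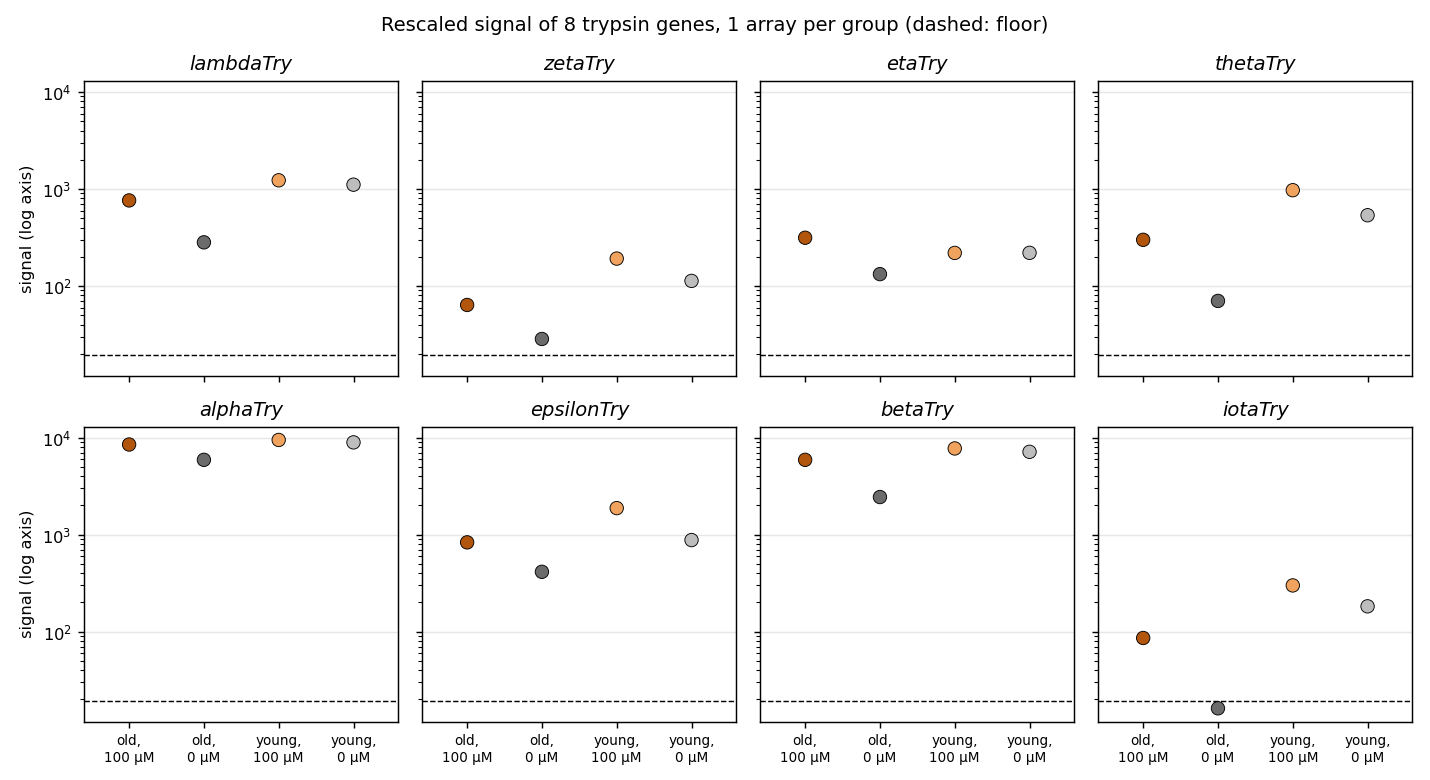
Rescaled signal (log axis) of the 8 trypsin genes with a probe set, 1 panel per gene and 1 point per array, for old and young flies on food with 100 or 0 µM curcumin; the dashed line is the floor of 19.3. The array of old flies without curcumin holds the lowest point in every panel, and for iotaTry it lies below the floor.

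The alpha and beta trypsin genes gave the signals nearest to the top of the arrays. alphaTry read 8470 in old flies with and 5890 in old flies without curcumin, and 9439 in young flies with and 8910 in young flies without curcumin. The young arrays were thus close to each other, and only old flies without curcumin stood clearly lower. In young flies with and without curcumin this was 94.6% and 90.0% of the highest signal on the array, where differences may be compressed; whether they were was not tested. betaTry, coding for a trypsin of the same subfamily, read 5888 in old flies with and 2435 in old flies without curcumin, and 7715 in young flies with and 7121 in young flies without curcumin. Its order over the arrays matched that of alphaTry, with a wider gap below.

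epsilonTry, which lies between alphaTry and betaTry on the chromosome, had a different spread over the arrays. It read 830.5 in old flies with and 412.8 in old flies without curcumin, and 1872 in young flies with and 876.8 in young flies without curcumin. At each age the array with curcumin was about as far above the array without it, 2.01-fold in old and 2.13-fold in young flies. Old flies with curcumin and young flies without it thus had nearly the same epsilonTry signal.

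thetaTry and iotaTry had the largest differences with age without curcumin and with curcumin in old flies. zetaTry, in the order that 7 of the 8 members share, is described with them. thetaTry read 299.7 in old flies with and 70.25 in old flies without curcumin, and 972.7 in young flies with and 537.0 in young flies without curcumin. iotaTry read 85.83 in old flies with curcumin and 16.17, below the floor, in old flies without it, and 298.9 in young flies with and 181.9 in young flies without curcumin. For both genes each of the 4 arrays was well separated from the next. zetaTry read 63.85 in old flies with and 28.48 in old flies without curcumin. In young flies it read 191.9 with and 113.0 without curcumin. Its signals ran in the same order and stayed above the floor on every array.

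lambdaTry, at the other end of the run from iotaTry, read 763.2 in old flies with and 282.2 in old flies without curcumin, and 1230 in young flies with and 1109 in young flies without curcumin. The young arrays were nearly equal here, as for alphaTry and betaTry. etaTry read 314.7 in old flies with and 132.7 in old flies without curcumin, and 219.5 in young flies with and 220.0 in young flies without curcumin. It was the member with its highest signal in old flies, those with curcumin, and its young arrays gave nearly the same signal.

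The first comparison asked how trypsin signals differ with age, on each diet. On curcumin food 4 of the 8 trypsins were at least 2-fold lower in old than in young flies, against 2.63% of 9749 genes, and the median log2 difference, old minus young, was -0.93, against -0.005 over all genes. The 4 were iotaTry (3.48-fold lower), thetaTry (3.25-fold), zetaTry (3.00-fold) and epsilonTry (2.25-fold), all of which were also past 2-fold on food without curcumin. lambdaTry (log2 -0.69), betaTry (-0.39) and alphaTry (-0.16) were lower by less than 2-fold, and etaTry was higher, at 0.52. No array is shared between the age differences of the 2 diets. The median without alphaTry and betaTry was -1.38.

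On food without curcumin all 8 trypsins were lower in old than in young flies, and 6 of the 8 were at least 2-fold lower, against 9.8% of 9712 genes compared. The median log2 difference was -1.76 over the trypsins and -0.02 over all genes. iotaTry was at least 9.42-fold lower and thetaTry 7.64-fold lower (log2 -2.93), and 0.36% of genes had a difference as low as that of thetaTry. zetaTry (3.97-fold), lambdaTry (3.93-fold), betaTry (2.92-fold) and epsilonTry (2.12-fold) were the other members past 2-fold. The remaining members, etaTry (log2 -0.73) and alphaTry (-0.60), were lower by less. A floor raised to the 60th percentile gave a trypsin median of -1.25 and put zetaTry at -0.73.

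**Figure D2:**
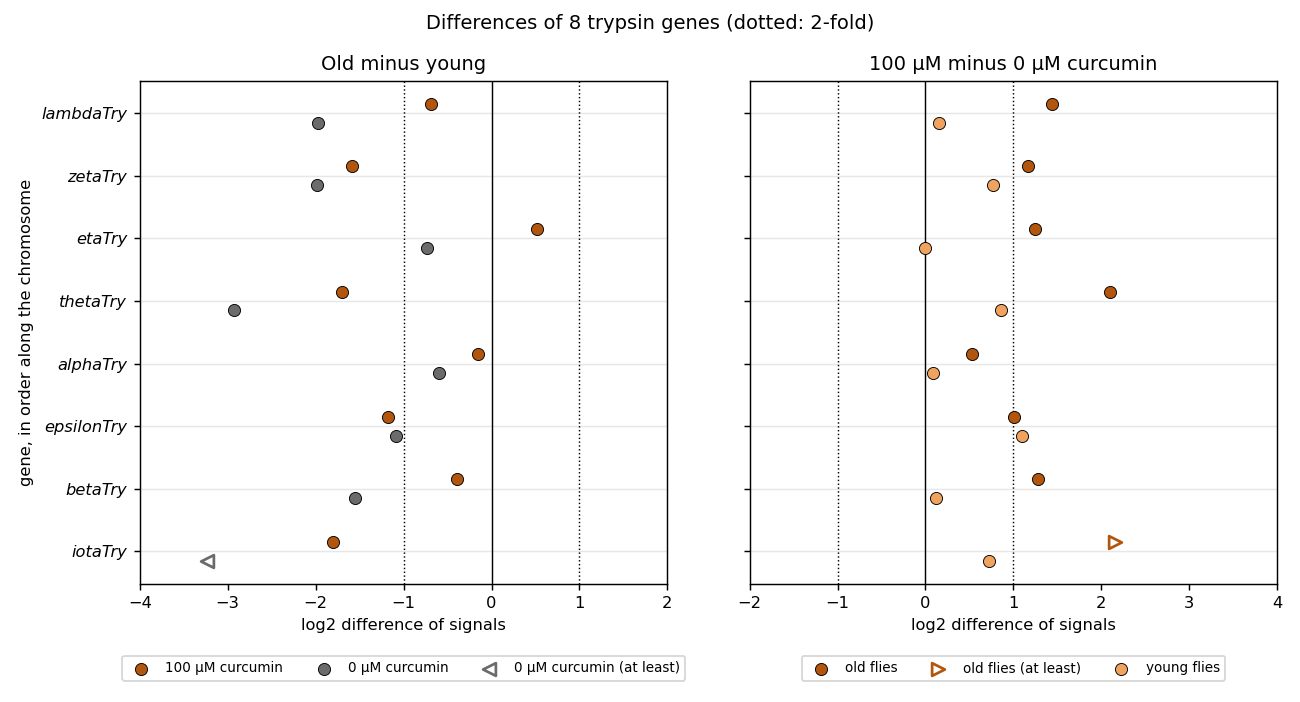
Log2 differences of the 8 trypsin genes, old minus young on each diet (left) and with minus without curcumin at each age (right), genes in order along the chromosome from top to bottom; open triangles are bounds against the floor and dotted lines mark 2-fold. Differences with age are nearer to 0 with curcumin for all but epsilonTry, and the curcumin difference in old flies exceeds that in young flies for all but the same gene. The gap between the age differences of a gene equals that between its curcumin differences, so these are not separate observations.

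Each member's age difference with curcumin minus that without, the age-by-diet value, was above 0 for 7 of the 8 trypsins, with a median of 1.20 log2 against 0.02 over 9562 genes. It was at least 1.44 for iotaTry, 1.29 for lambdaTry, 1.25 for etaTry, 1.24 for thetaTry and 1.16 for betaTry. alphaTry had 0.44 and zetaTry 0.40, and epsilonTry stood alone at -0.09. The curcumin difference in old flies minus that in young flies gives the same value. This value was not tested, since no degree of freedom is left for it with 1 array per group.

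The next question was what curcumin food went with at a given age. In old flies all 8 trypsins were higher with than without curcumin, and 7 of the 8 were at least 2-fold higher, against 5.2% of 9612 genes. The median log2 difference was 1.26, against -0.02 over all genes. iotaTry was at least 4.45-fold higher and thetaTry 4.27-fold higher, followed by lambdaTry (2.71-fold), betaTry (2.42-fold), etaTry (2.37-fold), zetaTry (2.24-fold) and epsilonTry (2.01-fold). alphaTry was 1.44-fold higher. This comparison and the age comparison without curcumin share the array of old flies without curcumin, which held the lowest trypsin signals, so their opposite signs are not separate observations. At a 3-fold threshold 2 trypsins remained higher, thetaTry and iotaTry, against 101 of 9612 genes.

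In young flies, 1 of the 8 trypsins was at least 2-fold higher with than without curcumin, against 0.389% of 9764 genes, and the median log2 difference was 0.43 against -0.04 over all genes. This gene was epsilonTry (2.13-fold, log2 1.09), and without rescaling no trypsin passed 2-fold. thetaTry (0.86), zetaTry (0.76) and iotaTry (0.72) followed, and between 0.717% and 1.42% of genes had differences as high as theirs. lambdaTry (0.15), betaTry (0.12), alphaTry (0.08) and etaTry (-0.003) were near 0. The trypsins of young flies thus split into 4 with differences of 0.72 or more and 4 within 0.15 of 0. The median without alphaTry and betaTry was 0.74. The 4 genes with the larger differences were also those past 2-fold between the ages among flies given curcumin. Both comparisons use the array of young flies with curcumin, which held the highest signal of each of these genes. Their appearance in both is therefore not a separate observation.

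**Figure D3:**
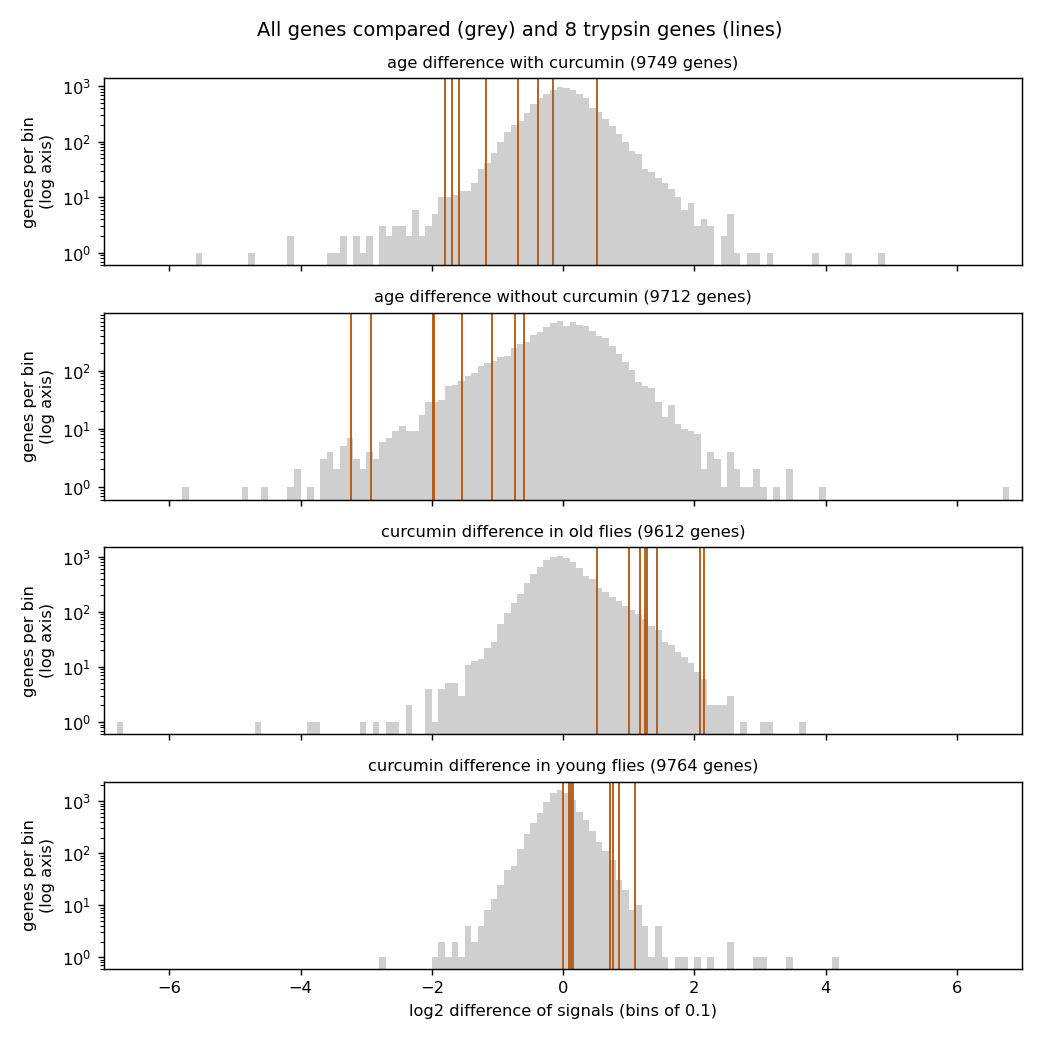
Distribution of log2 differences over all genes compared (grey, number of genes per bin of 0.1, log axis) with the 8 trypsin genes as vertical lines, for the 4 pairs of arrays. The trypsins lie on the lower side for age without curcumin, from -3.24 (a bound) to -0.60, and on the upper side for curcumin in old flies, from 0.52 to 2.15 (a bound).

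The arrays were also fitted together in limma with additive terms for age and curcumin, with 1 residual degree of freedom left per gene. That residual holds noise and any age-by-diet difference together. Separate cultures for the pools are not mentioned in the labels. No gene of 9562 had an adjusted p below 0.05 for age (0.0% of genes, smallest adjusted p 0.124) or for curcumin (0.0%, smallest 0.83), the trypsins included. For age, 6 of the 8 trypsins had an unadjusted p below 0.05 in limma, all lower in old flies, against 23.4% of genes (2238). For curcumin, 4 of the 8 did, all higher with curcumin, against 3.6% of genes (344).

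In this fit the mean age difference over the diets was -2.52 for iotaTry, with old flies without curcumin at the floor (SE 0.40, limma adjusted p 0.153), -2.32 for thetaTry (SE 0.35, adjusted p 0.153) and -1.79 for zetaTry (SE 0.20, adjusted p 0.134). lambdaTry had -1.33 (SE 0.36), epsilonTry -1.13 (SE 0.18) and betaTry -0.97 (SE 0.34). The estimates for alphaTry (-0.38, SE 0.21) and etaTry (-0.10, SE 0.36) were the smallest. The mean curcumin difference over the ages was highest for thetaTry (1.47, SE 0.35), iotaTry (1.43, SE 0.40) and epsilonTry (1.05, SE 0.18), all at a limma adjusted p of 0.83. epsilonTry had the smallest standard error among the 8, as its curcumin difference was nearly the same at both ages. With each array centred on its median, the age result differed. limma then gave an adjusted p below 0.05 for age to 5 of the 8 trypsins, against 982 of 9566 genes. The 5 were epsilonTry, zetaTry, thetaTry, iotaTry and lambdaTry.

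Some neighbours in the gene run differed in their values, and a relation of values to position was not tested. etaTry and thetaTry are neighbours, yet their age differences without curcumin were -0.73 and -2.93. alphaTry, epsilonTry and betaTry follow each other, and the curcumin difference of young flies was 1.09 for the middle gene and 0.08 and 0.12 for the outer ones. kappaTry, the neighbour between lambdaTry and zetaTry that the reference table also lists under a serine protease homolog name, read 522.7 in old flies with and 216.6 in old flies without curcumin, and 543.1 in young flies with and 450.8 in young flies without curcumin. It too was lowest in old flies without curcumin; its log2 age difference was -0.06 with and -1.06 without curcumin.

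Likeness between genes was measured as the Euclidean distance between log2 profiles over the 4 arrays, each centred on its own mean, for 8676 genes that reached the floor on each of the arrays. Among the 7 members of this kind, betaTry and lambdaTry were the closest pair at 0.38, and etaTry and thetaTry the farthest apart at 2.37. The 10 genes nearest to the median profile of the 7 were CG8197, CG3819, CG13086, Phae1, Ssl, HP6, Sodh1, CG8997, ND-20L and Dnali1, at distances from 0.08 to 0.17. Over all genes other than the 7 the median distance was 1.47, and the small distances of the 10 follow from picking the nearest. Phae1, listed as a serine protease, read 394.3 in old flies with and 186.7 in old flies without curcumin, and 704.8 in young flies with and 518.1 in young flies without curcumin. The genes nearest to thetaTry were Jon25Biii, Jon65Ai and LManVI. Nearest to zetaTry were COX7AL2 (0.106) and CG15353 (0.135), and Jon25Bi (0.169) came after them. All 3 Jonah genes code for digestive proteases. CG8299, a trypsin-type protease gene, was nearest to epsilonTry at 0.26, followed by the genes up (0.278) and CG12111 (0.315). The nearest genes were thus not all proteases. These distances describe 4 arrays only.

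Other digestive proteases differed in the same directions. In a list of 15 other trypsin-type and neighbouring protease genes, 12 had a probe set and 9 were compared in each pair, while CG17239, CG17234 and CG31681 were below the floor on every array. Old flies on curcumin food had 5 of the 9 at least 2-fold lower than young flies (median -1.09), against 2.63% of all genes. With age without curcumin 8 of the 9 were at least 2-fold lower, against 9.8% of all genes, with a median of -1.87. CG7542 (log2 -3.03), CG11911 (-2.82), CG17571 (-2.58), CG10472 (-2.14), CG11912 (-1.87), Try29F (-1.27, a bound), CG8299 (-1.15) and kappaTry (-1.06) were past 2-fold, and for CG4053 the floor allows only a bound of at least 1.68-fold lower. With curcumin in old flies 5 of the 9 were at least 2-fold higher (median 1.23), against 5.2% of all genes, led by CG7542 at 2.16. In young flies CG8299 alone was past 2-fold with curcumin (log2 1.11), against 0.389% of all genes, and the list median was 0.22.

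The Jonah and chymotrypsin-type proteases, which cut proteins after other residues, had medians in the same directions as the trypsins. Of 16 compared, 10 were at least 2-fold lower in old flies on curcumin food (median -1.51) and 13 on food without it (median -2.64). The shares over all genes were 2.63% and 9.8%. With curcumin, 12 of 16 were at least 2-fold higher in old flies (median 1.68) and 0 of 16 in young flies (median 0.38). Over all genes these shares were 5.2% and 0.389%, so the count of 0 is near the share of all genes. For age without curcumin Jon74E (log2 -4.52), Jon65Aii (-3.64) and Jon44E (-3.54, a bound) were among the lowest, and Jon66Ci (-0.44) and Ser6 (-0.47) nearest to 0. Enzymes of starch, sugar and lipid digestion had medians of -0.70 for age with and -1.32 for age without curcumin. At least 2-fold lower were 5 and 12 of 17 genes, against 2.63% and 9.8% of all genes. Medians of these enzymes for curcumin were 1.40 in old flies and 0.17 in young flies. In old flies 11 of 16 were at least 2-fold higher, against 5.2% of all genes. In young flies 1 of 17 was (CG17192, log2 1.245), against 0.389% of all genes. The maltase genes Mal-B1 and Mal-B2 went the other way with age without curcumin, at 2.78 and 0.71. With curcumin in old flies Mal-B2 (-0.51), Mal-B1 (-0.23) and Mal-A5 (-0.21) were below 0.

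**Figure D4:**
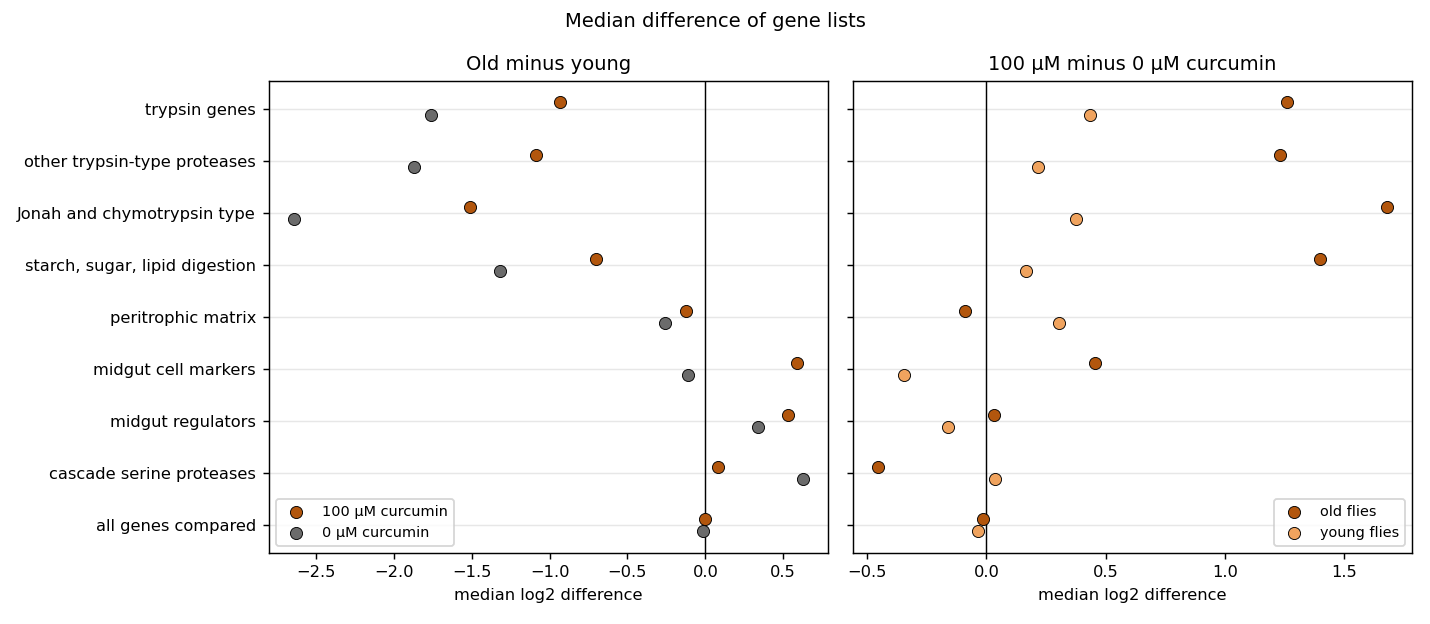
Median log2 difference of the trypsin genes, of 7 other gene lists and of all genes compared, old minus young on each diet (left) and with minus without curcumin at each age (right). The digestive enzyme lists lie beside the trypsins, with age medians from -2.64 to -0.70, and the serine proteases of immune, clotting and patterning cascades do not.

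Serine proteases outside digestion had medians of other signs than the trypsins for age without curcumin and for curcumin in old flies. Of 9 compared genes of immune, clotting and patterning cascades, 0 were at least 2-fold lower with age without curcumin, against 9.8% of all genes, and 3 were higher, against 4.21%. With so few genes the count of 0 is near the share of all genes. The 3 were Hayan (log2 1.91), spirit (1.10) and ea (1.05), and the list median was 0.63. In old flies the list's median for curcumin was -0.45, and Hayan, which acts in the Toll and melanization cascades, was at -1.77. SPE, the protease that activates the Toll ligand Spätzle, was at 0.21 for age without curcumin and -0.40 for curcumin in old flies.

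Markers of gut cells had medians nearer to 0 than the digestive enzymes for age without curcumin. Of 7 measured midgut and enteroendocrine markers, 0 were at least 2-fold lower with age on either diet, a count near the shares of all genes (2.63% with and 9.8% without curcumin). Their medians were 0.59 with and -0.11 without curcumin. Their summed signal was 2670 in old flies with and 2008 in old flies without curcumin, and 1552 in young flies with and 1889 in young flies without curcumin, but most of it was Alp4, which alone read 1690, 1232, 888.8 and 1043 on those arrays. The markers did not run in 1 order. pros, a marker of enteroendocrine cells, had the order of most trypsins, reading 68.38 in old flies with and 67.67 in old flies without curcumin, and 82.88 in young flies with and 80.72 in young flies without curcumin. esg and Dh31 were also lowest in old flies without curcumin, at 26.36 and 86.74. nub, the enterocyte factor Pdm1, read 269.9 in old flies with and 194.0 in old flies without curcumin. In young flies it read 131.1 with and 175.8 without curcumin. On curcumin food nub was thus 2.06-fold higher in old than in young flies, the 1 marker of the 7 past 2-fold there. Over all genes 292 of 9749 were at least 2-fold higher in that comparison. esg, a marker of gut progenitors, was 2.35-fold higher with curcumin in old flies (61.91 with and 26.36 without). Most of these genes are also expressed outside the gut, and the enterocyte myosin genes Myo31DF and Myo61F had no probe set in the table, so the part of gut cell number in the trypsin values was not tested.

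GATAe read 97.83 in old flies with and 76.50 in old flies without curcumin, and 113.4 in young flies with and 136.8 in young flies without curcumin. It was thus also lowest in old flies without curcumin, with a log2 age difference of -0.21 with and -0.84 without curcumin. The medians of the list it belongs to went the other way with age, though not every member did. The 13 measured midgut regulators had medians of 0.53 for age with and 0.34 for age without curcumin, and of 0.03 for curcumin in old flies. srp, another GATA factor, was highest in old flies without curcumin, reading 187.3 in old flies with and 273.0 in old flies without curcumin, and 129.7 in young flies with and 148.0 in young flies without curcumin. daw, a ligand of the activin type that is known to lower digestive enzyme genes in sugar-fed flies, was at 0.15 for age with and 0.52 for age without curcumin. In contrast, cad was lowest in old flies without curcumin, like GATAe, at 0.19 for age with and -0.52 for age without curcumin. sug was lowest there too, though by little (210.0, against 211.0 in old flies with curcumin), at -0.30 for age with and -0.19 without curcumin.

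Genes of organs other than the gut also differed on the array of old flies without curcumin. The male accessory gland genes SP and Acp26Aa were 3.03-fold and 2.51-fold lower in old than in young flies without curcumin, and both were 2.33-fold higher with curcumin in old flies. Lsp2, a storage protein of the fat body, was 5.66-fold lower with age without curcumin and 2.24-fold lower with it. With curcumin it was 3.1-fold higher in old flies, and it had the order of most trypsins over the arrays. The sperm genes Mst84Db, Mst84Da and Mst84Dc were at log2 -0.88, -0.29 and -0.14 for age without curcumin. The part of such array-wide differences in the trypsin values was not tested.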

How the data were processed

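RNA of 4 whole-fly pools was hybridised to Affymetrix Drosophila Genome 2.0 arrays. The deposited values were log2 signals, made with MAS5 per the submitters' processing notes, which give no version; the log2 scale was taken from their range, -4.67 to 13.4. Centring beyond MAS5 scaling is not stated, and deposited medians were 5.18 to 5.36.

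Signals were back-transformed, rescaled to a common 2% trimmed mean, floored at the 40th percentile and log2-transformed. Of 18769 probe sets, 13647 named 1 gene, 402 several and 4720 none. Symbols were updated by gene number to Release 6 (13544 matched), and the probe set with the highest mean stood for a gene. Pairs of arrays were compared without a test. limma 3.58.1 (R 4.3.3; Python 3.11.15) fitted age and curcumin with Benjamini-Hochberg adjustment over the 9562 genes that reached the floor on 2 or more arrays, and was tested on simulated data. The members, lists, thresholds and alternatives were chosen with earlier results of these data known, and the female markers after seeing their values. Named genes were all members, the 10 genes nearest to their median profile and the other trypsin list. Of the 3 genes nearest to each member and of the list extremes, only some are named. These and further examples were chosen after their values were seen. No sequences were printed, and planned descriptions of proteins and promoters were not made.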

Additional observations from a re-analysis of the deposited data

Results flagged for a closer look

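etaTry was singled out because its age difference had opposite signs on the 2 diets: 0.52 log2 with curcumin and -0.73 without it. It read 314.7 in old and 219.5 in young flies with curcumin, and 132.7 in old and 220.0 in young flies without it. Each sign rests on 1 pair of arrays, and the difference was not tested.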

How the results depend on the processing

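The trypsin counts and medians were recomputed with quantile normalization, no rescaling, centring on array medians, no floor or other floors, a pseudocount of 16, other rules for several probe sets, and a 3-fold threshold. No median of the 4 comparisons changed sign. Values that moved by more than 0.28 log2 (the SD of a difference under limma's prior), or counts by over 1.5 times, were as follows. Raising the floor to the 60th percentile gave a median of -1.25 for age without curcumin. Without alphaTry and betaTry, an alternative chosen after seeing the data, the median was -1.38 for age with curcumin and 0.74 for curcumin in young flies. The count for curcumin in young flies was 0 without rescaling and 0 at 3-fold, and that in old flies was 2 at 3-fold. The count of trypsins at an adjusted p below 0.05 for age in limma was 5 with median centring, where the prior had 11.2 degrees of freedom in place of 3.09, and 0 under the 10 other settings.

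The limma age estimate of etaTry, -0.10, was 0.029 with median centring and lay between -0.73 and 0.52 when single arrays were left out, the higher value without either of the arrays lacking curcumin. Its curcumin estimate, 0.62, lay between -0.0029 and 1.25, the lower value without either old array. Leaving out an array leaves no residual degree of freedom, so these are values with no test. Of 287 recomputed gene differences, 280 moved by less than 0.28, and the 7 others were of zetaTry and iotaTry with the higher floor or the pseudocount, such as 0.33 for iotaTry with curcumin in old flies at the higher floor.

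Counts over all genes depended on the floor and the threshold. For age without curcumin 952 genes were lower, 1736 with no floor, 455 with the 60th percentile floor and 318 at 3-fold. For age with curcumin the counts lower were 256, 905, 155 and 77 in the same order, and 455 with the 25th percentile floor. Genes higher with curcumin were 500, 1176, 263 and 101 in old flies (333 with the pseudocount) and 38, 525, 15 and 10 in young flies (162 with the 25th percentile floor). limma called 982 of 9566 genes for age with median centring, 8 of 6685 with the 60th percentile floor and 0 of 9562 as reported.

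Centring on array medians shifted the all-gene median for age without curcumin to 0.18 and for curcumin in old flies to -0.13, and no rescaling shifted those for age with curcumin to 0.12 and for curcumin in young flies to -0.13. Relative to the all-gene median, the trypsin medians under centring were -0.92 for age with and -1.74 for age without curcumin, and 1.27 for curcumin in old and 0.47 in young flies. Of calls past 2-fold, the share higher was 53.3% for age with curcumin (69.6% without rescaling), 49.4% for curcumin in young flies (33.3%) and 80.6% in old flies (67.0% with centring). No paired analysis was possible because each group has 1 array.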

Other observations

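Among the other gut genes on the arrays, LysX, a lysozyme gene, ran opposite to the trypsins for age and for curcumin in old flies, and in the same direction for curcumin in young flies (log2 0.42). It read 469.1 in old flies with and 726.2 in old flies without curcumin, and 86.56 in young flies with and 64.53 in young flies without curcumin. Its log2 age difference was 2.44 with and 3.49 without curcumin. Of the other lysozyme genes with a probe set, LysP was at 0.27 for age without curcumin and LysS at 0.52 or more, a bound. Among 7 genes of the peritrophic matrix and gut wall, which line and protect the gut lumen, Peritrophin-15a was lower with age on both diets (log2 -1.15 with and -1.59 without curcumin) and Cht4, a chitinase gene, was at 0.78 with and 1.17 without curcumin. The median of the 7 for age without curcumin was -0.26.

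Near-identical 4-array profiles also occurred in genes with no known digestive role. Lim3, a homeobox gene of neurons, lay 0.04 from alphaTry, with signals of only 32.25 to 53.5. EbpII, a gene of the male ejaculatory bulb, lay 0.07 from betaTry. EbpII read 6980 in old flies with and 2710 in old flies without curcumin, and 8967 in young flies with and 8300 in young flies without curcumin. CG30427, at 0.12, was nearest to etaTry, and CG3699, at 0.07, to lambdaTry, with no role given here for either. These genes were picked from the 3 nearest to a member among 8676 genes. Their small distances follow from the picking.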
